A study of Mus musculus with 24 samples.

Results

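The regions described here are 2788 H3K4me1 sites of mouse erythroleukaemic cells that had a wide peak without doxycycline, no peak with it, and no H3K27ac peak in either condition. They were chosen by width and overlap alone. A site is an H3K4me1 peak of the untreated cells at least 1000 bp wide, on an assembled chromosome, that shares no base with an H3K4me1 peak of the doxycycline-treated cells nor with an H3K27ac peak of either condition. Of 119362 untreated H3K4me1 peaks, 56627 were that wide, 30869 of these carried no H3K27ac, and 2788 of those had no treated peak. These lost sites made up 4.92% of all wide untreated peaks and 9.03% of the unacetylated ones. The other 28081 unacetylated sites kept an overlapping treated peak and are called kept sites.

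The cells are TgSpi1 leukaemic erythroid cells (number 763, from leukaemic bone marrow), which carry a Spi1 transgene and overexpress SPI1, and which were grown with EPO. Both groups used here are the same cells with a doxycycline-inducible short hairpin RNA against Spi1. The untreated group received no doxycycline, and the treated group received it for 48 h. Each mark has 1 peak list per condition: the H3K4me1 lists stand for replicate 1, and the H3K27ac lists for replicates 1 and 2 together. All values come from 1 cell population, and since no samples with doxycycline but no hairpin are labelled, effects of the drug and of the hairpin cannot be told apart. There is no replicate error, and each difference below is a difference between lists with no test. Intervals beside percentages are exact binomial ones (Clopper-Pearson, 95%) for the counting of peaks, genes or windows and hold no other error. Fewer cells with a mark and less mark per cell cannot be told apart in such bulk lists.

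H3K4me1 is laid down on nucleosomes at enhancers, both those in use and those that are only primed. H3K27ac is added at active enhancers and promoters, so a site with H3K4me1 alone is commonly read as a primed or inactive enhancer. SPI1, also called PU.1, is an ETS family factor of myeloid and B cells that binds purine-rich sites with a GGAA core, and in macrophages and B cells it is known for opening chromatin where H3K4me1 is then placed. In the erythroid lineage its level normally falls as GATA1 takes over, and its continued expression blocks red cell maturation. All 15 erythroid transcription factor genes of the list used here, Gata1, Klf1 and Tal1 among them, had an H3K27ac peak in both conditions, in their body or within 10 kb. Among 49 genes for globins, haem synthesis and the red cell membrane, 45 had one without doxycycline and 48 with it. Among 50 granulocyte and monocyte genes, 27 had one in each condition. Such peaks were not particular to erythroid genes. All 28 housekeeping genes, taken as a control list, and 37 of 38 cell cycle genes had one in each condition, against 9 of 25 neuronal genes.

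The letters of the sites are shown where an annotated promoter window lay wholly inside a lost site, since such windows tie a site to a named gene. The windows run from 250 bases before to 50 after a gene's annotated start (RefSeq, GRCm38.p6, 5' to 3' on the strand of the gene). Of 53 such windows, 8 held GAGGAAGT on either strand, the purine-rich core of the SPI1 motif. Those of 5 are printed below, with 3 that held only the shorter GGAAGT that it contains. Capitals mark the match, which reads ACTTCCTC or ACTTCC where it lies on the other strand. Where the match follows the start, only a short stretch around it is given.
Cd53, chr3:106790125-106790154 (minus strand): cactcagtctcACTTCCTCactcttctcgc
Cyth4, chr15:78597062-78597091 (plus strand): ggccagggctgACTTCCTCccacagggtct
Adgre4, chr17:55750014-55750033 (plus strand): agcagtggtgcACTTCCTCc
Ly6g5b, chr17:35115517-35115604 (minus strand): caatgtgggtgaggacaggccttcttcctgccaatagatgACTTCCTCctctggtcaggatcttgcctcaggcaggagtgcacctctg
Gm35891, chr3:51128940-51129024 (minus strand): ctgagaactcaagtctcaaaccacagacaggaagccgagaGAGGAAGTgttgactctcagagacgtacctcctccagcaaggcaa
Fcgr2b, chr1:170976072-170976142 (minus strand): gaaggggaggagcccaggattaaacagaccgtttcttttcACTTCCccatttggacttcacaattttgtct
C5ar2, chr7:16244208-16244293 (minus strand): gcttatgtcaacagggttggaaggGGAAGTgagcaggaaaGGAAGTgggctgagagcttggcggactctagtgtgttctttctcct
Arhgap15, chr2:43748663-43748748 (plus strand): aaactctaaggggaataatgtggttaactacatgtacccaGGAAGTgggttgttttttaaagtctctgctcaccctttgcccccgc

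The match began 6 bases after the start at Cd53, which encodes a leukocyte tetraspanin, 26 bases after it at Cyth4, a cytohesin exchange factor for Arf GTPases, and 41 bases after it at Adgre4, an adhesion receptor of macrophages. At Ly6g5b, a Ly6 family surface protein gene, it ended 48 bases before the start, and at the non-coding Gm35891 38 bases before it. Of the remaining 3 windows with GAGGAAGT, 1 belonged to the coding gene 9330182O14Rik and 2 to the non-coding Gm33877 and Gm11342. The shorter match ended 26 bases before the start of Fcgr2b, the inhibitory IgG Fc receptor, and 116 bases before that of Arhgap15, a Rac GTPase-activating protein of leukocytes. The window of C5ar2, a receptor for the complement fragment C5a, held it at 2 places.

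The lost sites over these windows differed in how far the nearest H3K4me1 peak with doxycycline lay. At Cd53 the site was 2303 bp wide (chr3:106788099-106790401), and the nearest treated H3K4me1 peak was 63648 bp away. At Adgre4 a site of 1203 bp had its nearest treated peak at 31548 bp, and at Arhgap15 a site of 1603 bp had it at 18948 bp. At Cyth4 (1253 bp) the distance was 6548 bp and at Fcgr2b (1253 bp) 2248 bp. At Ly6g5b, a wide site of 2203 bp, a treated peak began 148 bp away, and at C5ar2 (1553 bp) 198 bp away. Cd53, Adgre4 and Arhgap15 thus had no H3K4me1 peak near the start after doxycycline, whereas at Ly6g5b and C5ar2 a peak remained beside the site without touching it.

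Among all 32817 distinct promoter windows, 3.20% held GAGGAAGT, against 15.1% of those inside lost sites (8 of 53, interval 6.75 to 27.6%). The share was 3.63% inside kept sites (42 of 1158, 2.63 to 4.87%). Inside unacetylated sites gained with doxycycline, defined in the same way with the conditions exchanged, no window of 31 held it, which allows a share of up to 11.2%. GGAAGT, which includes every GAGGAAGT match, was in 43.4% of lost windows (23 of 53, 29.8 to 57.7%), against 23.8% of all windows, 23.0% in kept and 12.9% in gained sites. The GATA letters AGATAA were in 18.9% of lost windows, 19.4% of gained, 14.6% of kept and 11.2% of all. CACCC, the core bound by Krüppel-like factors, was in 69.8% of lost windows, 58.1% of gained, 64.0% of kept and 57.5% of all. Both strands were searched for every motif. The intervals of lost and gained windows overlapped for GAGGAAGT, and for AGATAA and CACCC those of lost, gained and kept windows did. A match is a string of letters, not a measured binding site.

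**Figure D1:**
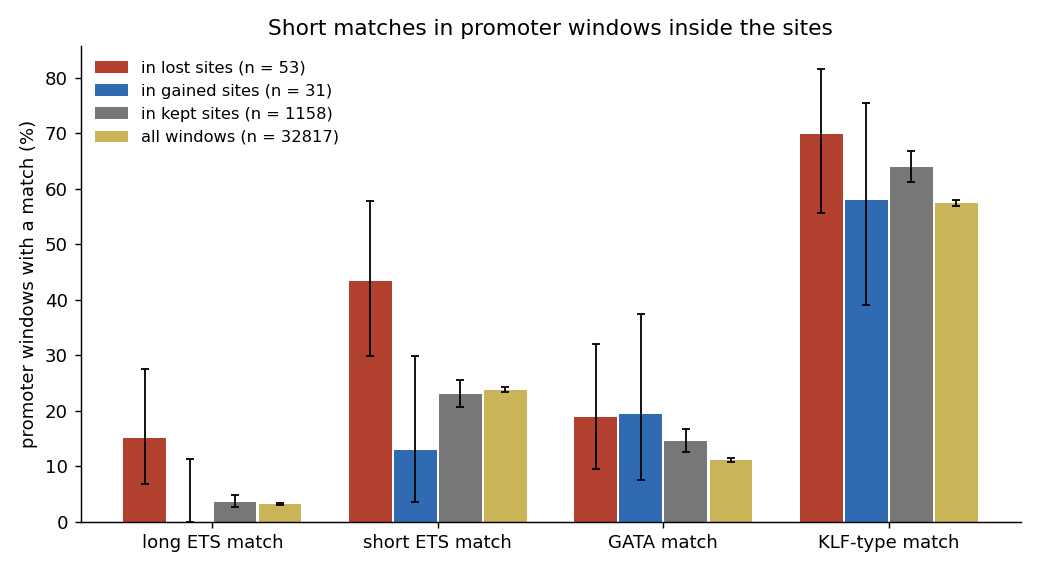
Share of promoter windows with a match (y axis, %) for the longer and the shorter purine-rich letters (long and short ETS match), the GATA letters and the CACCC letters (KLF-type match), for windows wholly inside lost, gained or kept sites and for all windows. Bars are shares and lines exact 95% intervals; the lost windows stand at 15.1% for the long and 43.4% for the short ETS match, against 3.20% and 23.8% of all windows.

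Base composition differed between the sets of windows, and its part in the shares was not tested. The median window in lost sites held 4 CpG dinucleotides at 51.0% GC, against 7 CpG and 53.7% in kept sites, 3 and 46.7% in gained sites, and 7 and 52.7% over all windows. Among windows with 2 to 6 CpG, GAGGAAGT was in 18.2% of those in lost sites (6 of 33, 6.98 to 35.5%), 6.35% of those in kept sites (4.29 to 8.99%) and 444 of all 11088, and the lost and kept intervals overlapped.

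The other 30 windows inside lost sites held neither ETS match, and 17 of them belonged to protein-coding genes of varied function. Among these were Nlrp3, the inflammasome sensor, in a site of 2303 bp, Gzmb, a cytotoxic granule protease, in 1503 bp, Ggt1, a gamma-glutamyltransferase, in 1453 bp, and Slc45a3, a solute carrier, in 1503 bp. Few lost sites reached the start of a protein-coding gene. Of 2713 lost sites on chromosomes with promoter windows, 35 covered one (1.29%, 0.900 to 1.79%), against 0.661% of gained and 2.69% of kept sites. Among 1005 annotated miRNA hairpins, 5 overlapped a lost site, 3 a gained site and 42 a kept site. These sets hold 2788, 2844 and 28081 sites, so the counts are not comparable as they stand.

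The lost sites were narrower than the kept ones and had lower median scores within bands of width. Their widths ran from 1003 to 4203 bp with a median of 1203 bp, and the 25% and 75% points were 1053 and 1453 bp. Only 173 reached 2000 bp and 14 reached 3000 bp, and they covered 3723 kb in all. The gained sites had the same median and the same 25% and 75% points, whereas the kept sites had a median of 1603 bp. The rule used width, so the limit itself matters: 346 of 1782 unacetylated peaks of 1003 bp were lost (19.4%), and just outside it 470 of 2103 peaks of 953 bp (22.3%). Examples just inside are a 1003 bp site in Tmem131 (chr1:36820549-36821551) and one near Prim2 (chr1:33446849-33447851). Just outside are 953 bp peaks in Phf3 and near Khdc1a.

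The share of untreated peaks without a treated peak fell with width, and the mirror share among treated peaks ran alongside it. Of unacetylated untreated peaks under 500 bp, 61.6% had no treated peak, of those from 1000 to 1199 bp 18.3%, from 1500 to 1999 bp 6.94%, and of those at least 2000 bp wide 1.90%. For treated peaks without an untreated one the shares were 59.7%, 19.3%, 5.96% and 1.87%. In total 2844 of 32848 wide unacetylated treated peaks were gained (8.66%), so sites found in a single condition were about as frequent in each direction. How often 2 libraries of the same condition would differ in this way was not tested, since each H3K4me1 list stands for 1 replicate.

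**Figure D2:**
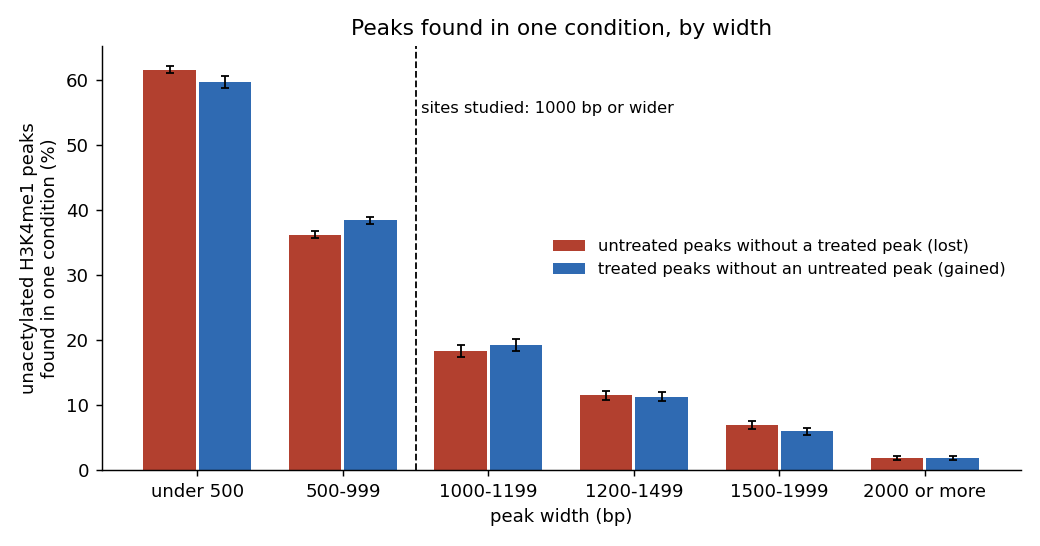
Share of unacetylated H3K4me1 peaks found in only 1 condition (y axis, %) by peak width in bp (x axis), for untreated peaks (lost) and treated peaks (gained); lines are exact 95% intervals. Both shares drop from 61.6% and 59.7% under 500 bp to 1.90% and 1.87% at 2000 bp or more, and the sites studied lie right of the dashed line.

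By the score that the authors gave each peak, lost sites had lower medians than kept sites in each band of width. The median score was 7.35 for lost and 7.99 for kept sites of 1000 to 1199 bp, and 9.52 and 10.1 at 1200 to 1499 bp. It was 12.3 and 13.3 at 1500 to 1999 bp, and 16.8 and 21.0 at 2000 bp or more. Below 1500 bp both sets had the same median widths, 1053 and 1303 bp. In the wider bands lost sites were narrower, at 1653 against 1703 bp and 2253 against 2603 bp. The score rises with width, so those gaps partly hold width. Of the lost sites, 2403 lay in the better 50% of all untreated H3K4me1 peaks, 183 in the better 25% and 5 in the better 10%. The best lost site ranked 7537.

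That site was also the widest, at 4203 bp (score 36.3), and lay in Ralgapa1, a subunit of the Ral GTPase-activating complex (chr12:55782199-55786401), with the nearest treated H3K4me1 peak 10498 bp away. Next by width were a site of 3953 bp at an end of Snx5, a sorting nexin, one of 3903 bp 36089 bp from Cemip2, and one of 3853 bp in Zmiz1, a transcriptional co-activator (score 33.1). Sites of 3653 bp lay in Heg1, a membrane receptor of endothelial junctions, and 39035 bp from Gm6557 (score 31.9). Sites of 3453 bp lay at Hacd4, a fatty acid elongation enzyme, and Lpcat2, an acyltransferase of inflammatory cells. A site of 3353 bp lay 57492 bp from Calml3. At the 3503 bp site near Creb1, the cAMP-responsive factor, a treated peak began 48 bp away.

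The distance to the nearest treated H3K4me1 peak varied widely among the lost sites. Its median was 2798 bp. A treated peak lay within 500 bp of 326 sites (11.7%), within 1 kb of 655 (23.5%), within 5 kb of 1829 (65.6%) and within 20 kb of 2545 (91.3%). The 5 most isolated sites lay 86105 bp from Maf, a bZIP factor of macrophages among other cells, in Sgcz, in Robo2, and far from the ends of H2al1n and Klhl29. Near Maf the 1403 bp site (chr8:115792999-115794401) had its nearest treated H3K4me1 peak 1120198 bp away. These 5 sites were 1053 to 2003 bp wide.

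Most lost sites lay in genes and away from their ends. Of the 2788, 1606 (57.6%, 55.7 to 59.5%) lay in a protein-coding gene body, 980 (35.2%, 33.4 to 37.0%) between genes and 202 (7.25%, 6.31 to 8.27%) within 1 kb of an annotated gene end. For gained sites these shares were 52.2%, 42.1% and 5.70%, and for kept sites 55.1%, 35.2% and 9.79%. The median distance to a gene end was 16182 bp for lost, 19536 bp for gained and 13062 bp for kept sites. Among lost sites 9.43% lay over 100 kb from a gene end, against 14.7% of gained and 6.87% of kept. The intergenic share was lower for the wider lost sites, at 28.3% for those of 2000 bp or more against 37.1% for those of 1000 to 1199 bp. Kept sites had a like fall, with 28.6% against 39.6%, whereas for gained sites the shares were 48.5% and 40.1%.

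By chromosome, the share of unacetylated sites that were lost ran from 7.47% on chromosome 10 to 12.1% on X (132 of 1088), with a median of 8.85% over 20 chromosomes. Y, with 1 unacetylated site, which was kept, was left out. Chromosome 16 had the highest ratio of lost to gained sites, at 121 against 87, and chromosome 18 the lowest, at 75 against 122. The length covered by H3K4me1 with doxycycline relative to without it was also lowest of these 20 on X, at 0.994 times, against a median of 1.06.

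The surroundings of lost sites also held less H3K4me1 with doxycycline. Within 10 kb on either side, the site itself left out, untreated peaks covered 4212 bp on average and treated peaks 3618 bp. Coverage was lower with doxycycline around 1701 sites (61.0%, 59.2 to 62.8%), higher around 811 and equal around 276. Around gained sites it went from 3467 to 4708 bp and around kept sites from 4899 to 5459 bp. Around 527 lost sites no treated H3K4me1 peak was left within 10 kb. Since no treated peak may touch a lost site, a wide treated peak can never span one, and this holds down treated coverage next to it by construction. In the coverage profile, 2.5 kb from the centre 21.1% of lost sites had an untreated and 16.6% to 16.7% a treated peak, and 20 kb away 22.6% to 23.0% and 20.9% to 21.1%.

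**Figure D3:**
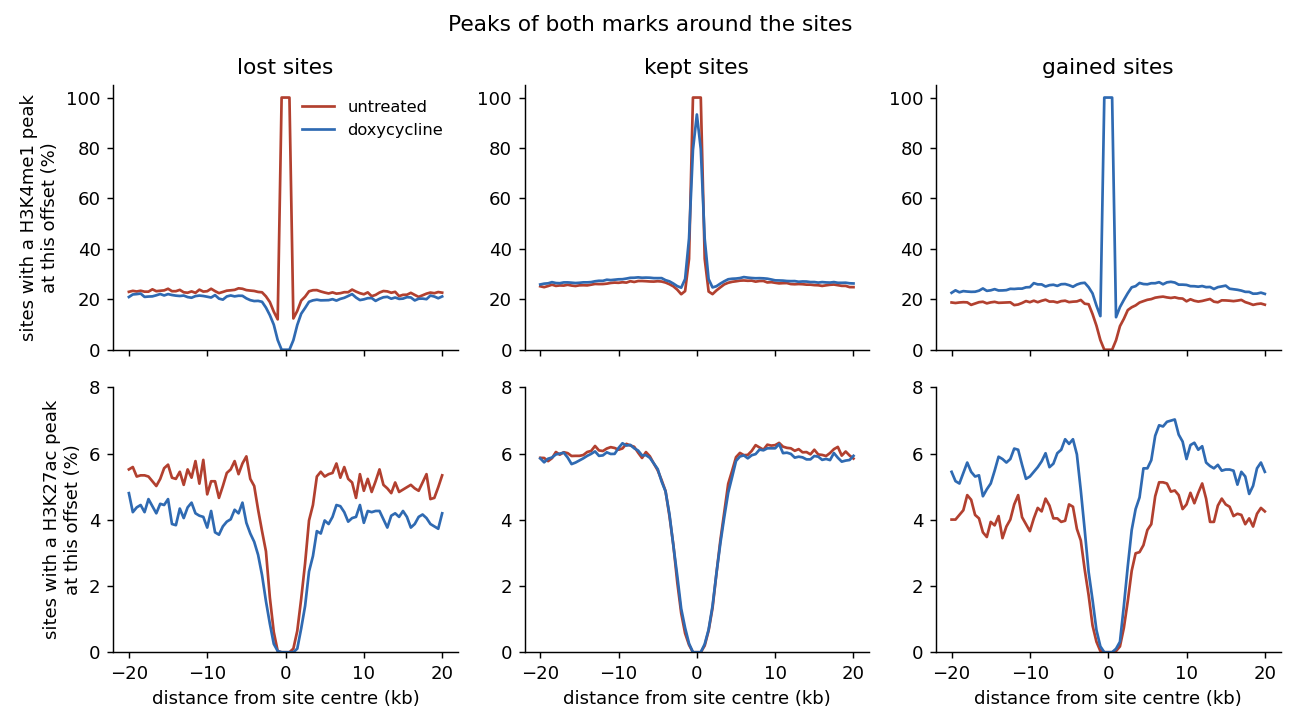
Percentage of lost, kept and gained sites (columns) with an H3K4me1 peak (top) or H3K27ac peak (bottom) at each distance from the site's centre (x axis, kb), without doxycycline (red) and with it (blue). Around lost sites the untreated curves lie above the treated ones to at least 20 kb (22.6% to 23.0% against 20.9% to 21.1% for H3K4me1 there), around gained sites below them; the values at the centre are set by the rule.

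Narrower untreated peaks near lost sites lacked a treated peak more often than those near kept sites, but the rule bears on this too. A treated peak that covered a neighbour and reached the lost site would have barred that site, whereas kept sites had no such limit. How far this shifts the shares was not tested. Of 3890 untreated H3K4me1 peaks under 1000 bp within 10 kb of a lost site, 2252 had no treated peak (57.9%, 56.3 to 59.5%), against 42.1% of those near kept sites, 32.0% of those near gained sites and 46.2% of all such peaks. Neighbours of 500 to 999 bp gave 46.0%, 31.4%, 20.7% and 33.1%. Median widths of these neighbours were 503 bp and 703 bp around all 3 kinds of site.

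Acetylated peaks near the lost sites were fewer with doxycycline, though none touched a site. An H3K27ac peak lay within 10 kb of 1144 lost sites without doxycycline (41.0%, 39.2 to 42.9%) and of 857 with it (30.7%, 29.0 to 32.5%). It was there without doxycycline only at 323 sites and with it only at 36, in both at 821 and in neither at 1608. Around kept sites the shares were 45.5% and 41.9%, and around gained sites 33.4% and 38.9%. The untreated H3K27ac list held more peaks in all, 28902 against 23341. A further 67 wide H3K4me1 peaks without a treated H3K4me1 peak overlapped H3K27ac, 65 in the untreated and 2 in the treated list, and were not counted as lost sites.

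Most lost sites stood alone. Linked by gaps of at most 20 kb they formed 2507 runs, of which 2268 held a single site, 203 held 2, 32 held 3 and 4 held more, and 520 sites (18.7%) had another in their run. Gained sites formed 254 runs of at least 2, with 17 of at least 4, against 4 among the lost. The largest run held 6 lost sites over 34.2 kb in Fut8 (chr12:77329849-77364051), which encodes the enzyme that adds core fucose to N-glycans. It also held 3 kept and no gained sites. Runs of 4 lay in Tm9sf2, a transmembrane protein gene of the secretory pathway (29.0 kb), at Prkca, a protein kinase C (38.9 kb), and 8993 bp from Mapk1ip1l (27.1 kb). The next run, of 3 sites over 12.3 kb, lay in Ralgapa1 and included the widest site.

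Over genes, a body extended by 10 kb held at least 1 lost site in 2148 of 21887 protein-coding genes (9.81%) and at least 1 gained site in 1930 (8.82%), with both in 285. Genes with a lost site were long, with a median of 43.7 kb against 17.2 kb over all genes. For gained sites the median was 47.5 kb. Of genes with a lost site, 1797 held 1, 257 held 2 and 94 held 3 or more.

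Fut8 held by far the most, with 13 lost sites, 16 kept and none gained. Its lost sites were 1003 to 2003 bp wide, and the nearest treated H3K4me1 peaks were 48 to 6398 bp from them. The gene carried 75 untreated and 45 treated H3K4me1 peaks, and 5 and 2 H3K27ac peaks. Peak numbers, here and below, are not covered lengths. Over the whole lists the median H3K4me1 peak was 903 bp wide without doxycycline and 1153 bp with it. Inpp4b, a phosphoinositide phosphatase, held 6. Ptpre, a receptor-type tyrosine phosphatase, held 5 with 4 kept, 3 of the 5 within 9.05 kb (chr7:135548099-135557151). Gab2, a docking protein in cytokine receptor signalling, held 5 lost, 13 kept and 1 gained. Pebp4, Nrg3, a neuregulin, and Pank1, a pantothenate kinase of coenzyme A synthesis, held 5 each, and Tm9sf2 and Map4, a microtubule-associated protein, 4 each. Of these 10 genes, counted with Lyn (5 sites), Gab2 alone had a gained site. A gained site was rare at genes with lost sites in general. Of all 94 genes with 3 or more lost sites, 75 had none, and of all 2148 with a lost site, 1863.

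Spi1 itself held no lost site, 3 kept and no gained. Its body with flanks carried 11 untreated and 9 treated H3K4me1 peaks and 7 and 6 H3K27ac peaks, and the nearest lost site was 287090 bp away. The hairpin acts on the transcript, so peaks at the gene do not check the knockdown.

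Of the gene lists, granulocyte and monocyte genes had the highest share of sites lost. Of 81 unacetylated untreated sites at their 50 genes, 17 were lost (21.0%, 12.7 to 31.5%), against 8.83% of 24248 sites at all protein-coding genes. Of their 62 treated sites, 2 were gained (3.23%, 0.393 to 11.2%), against 7.79% over all genes. Counted by gene, 12 of 50 (24.0%) held a lost site and 2 a gained one, against 9.81% and 8.82% of all genes, although the median gene of the list was 13.0 kb long and so shorter than the 17.2 kb over all. By gene, the stem and progenitor list (30.8%) and the cytokine signalling list (25.6%) stood higher, with longer median genes of 45.2 and 42.4 kb. The myeloid list was drawn up with earlier results of these data known. Without Lyn, 12 of 70 sites were lost (17.1%, 9.18 to 28.0%), and this interval lies just above the 8.83% over all genes.

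Lyn, a Src family kinase of myeloid and B cells, held 5 lost and 6 kept sites. The lost ones were 1003 to 1153 bp wide. The first, near the lower-coordinate end of the gene, had a treated H3K4me1 peak 548 bp away. Its nearest H3K27ac peak was 4648 bp away without doxycycline and 4398 bp away with it. The other 4 lay 3748, 6448, 11598 and 21498 bp from a treated H3K4me1 peak and at least 45898 bp from any H3K27ac peak. Lyn carried 29 H3K4me1 peaks without doxycycline and 12 with it, and 1 H3K27ac peak in each condition. A single treated peak can lie over several untreated ones, as at the lower-coordinate end of Lyn, so the fall in number is not all loss.

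**Figure D4:**
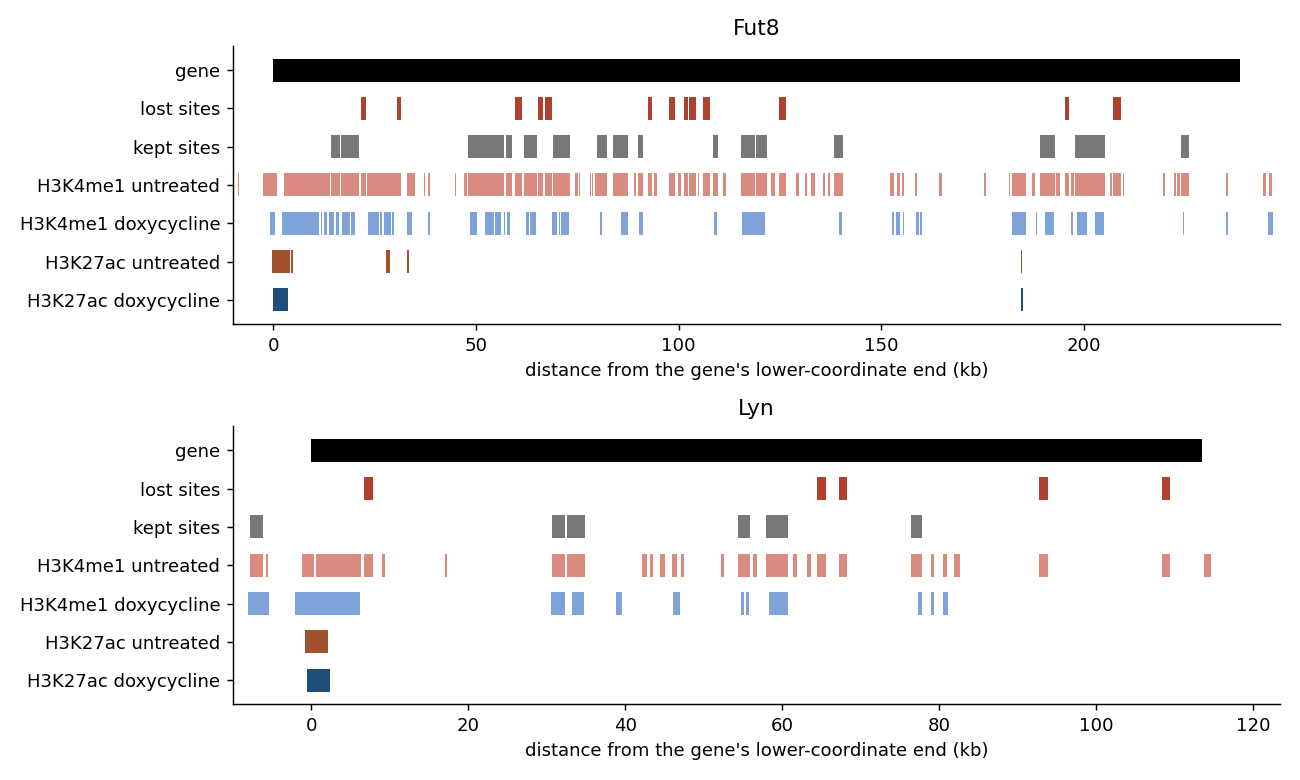
Peaks of the 4 lists and the lost and kept sites over Fut8 and Lyn, by distance in kb from the lower-coordinate end of each gene (x axis); each bar is a peak to scale. In Fut8 the 13 lost sites are interleaved with 16 kept sites, and in Lyn the 5 lost sites include 2 beyond the last treated H3K4me1 peak of the gene.

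Itgax, the CD11c integrin chain of dendritic cells and macrophages, held 2 lost sites and no kept one. The wider measured 2553 bp (chr7:128131899-128134451, score 22.0) and lay 81798 bp from any treated H3K4me1 peak. The gene with its flanks had 2 H3K4me1 peaks without doxycycline and none with it, and no H3K27ac peak in either. Itgb2, the shared chain of the leukocyte integrins, held a lost site of 2053 bp beside 6 kept ones, with a treated peak 3048 bp away. Receptors on the list with 1 lost site each were Csf1r, the M-CSF receptor (1303 bp, treated peak 9398 bp away), Csf2rb, the common beta chain of the GM-CSF receptor (1053 bp, 498 bp), Fcgr1 (1403 bp, 1698 bp) and Fcgr2b. The site at Fcgr1 reached only 271 bp into the gene's window.

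Further single lost sites of the list lay at the adaptor gene Tyrobp (1453 bp, ending 31 bp from the gene), the interferon regulatory factor Irf5 (1453 bp), the lysozyme gene Lyz2 (1353 bp) and the NADPH oxidase subunit genes Cyba (1353 bp) and Ncf4 (1253 bp). Ncf4 also held a gained site, and its H3K27ac peaks numbered 0 without and 4 with doxycycline. Over the whole myeloid list, 35 of 50 genes had fewer H3K4me1 peaks with doxycycline and 4 had more. The H3K4me1 lists held 119362 untreated and 101388 treated peaks, and other gene lists had such a fall too. Of 18 megakaryocyte and platelet genes, 15 had fewer H3K4me1 peaks and 0 more. Of 28 housekeeping genes, 16 had fewer and 6 more, and of the 49 globin, haem and membrane genes 26 and 11. Neither H3K27ac list had a peak at 3 of the 12 myeloid genes with a lost site. The number of the 50 myeloid genes with an H3K27ac peak was 27 in each condition. Defining genes such as S100a8, S100a9, Irf8 and Cd33 had no H3K4me1 peak in either list, and Cebpa had 1 without doxycycline and none with it.

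At the 49 genes for globins, haem synthesis and membrane, 3 of 104 sites were lost (2.89%, 0.599 to 8.20%), against 8.83% over all genes. Of their 124 treated sites, 15 were gained (12.1%, 6.93 to 19.2%), an interval that includes the 7.79% over all genes. Counted by gene, 3 of 49 held a lost site (6.12%, 1.28 to 16.9%), an interval that includes the 9.81% of all genes. A gained site lay at 12 of the 49 (24.5%, 13.3 to 38.9%), against 8.82% of all genes. The median gene of the list was longer, at 23.2 kb against 17.2 kb over all. The lost sites lay in Sptb, the membrane skeleton spectrin beta chain (1203 bp, beside 11 kept and 1 gained), and near Bnip3l, a mitophagy receptor, and Car1, a carbonic anhydrase. No site of 42 was lost at the 15 erythroid transcription factor genes, which allows up to 8.41%, while 19 of 58 treated sites were gained (32.8%, 21.0 to 46.3%). Sox6 held 16 of these 19. Without it 3 of 19 treated sites were gained (15.8%, 3.38 to 39.6%), an interval that includes the 7.79% over all genes.

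**Figure D5:**
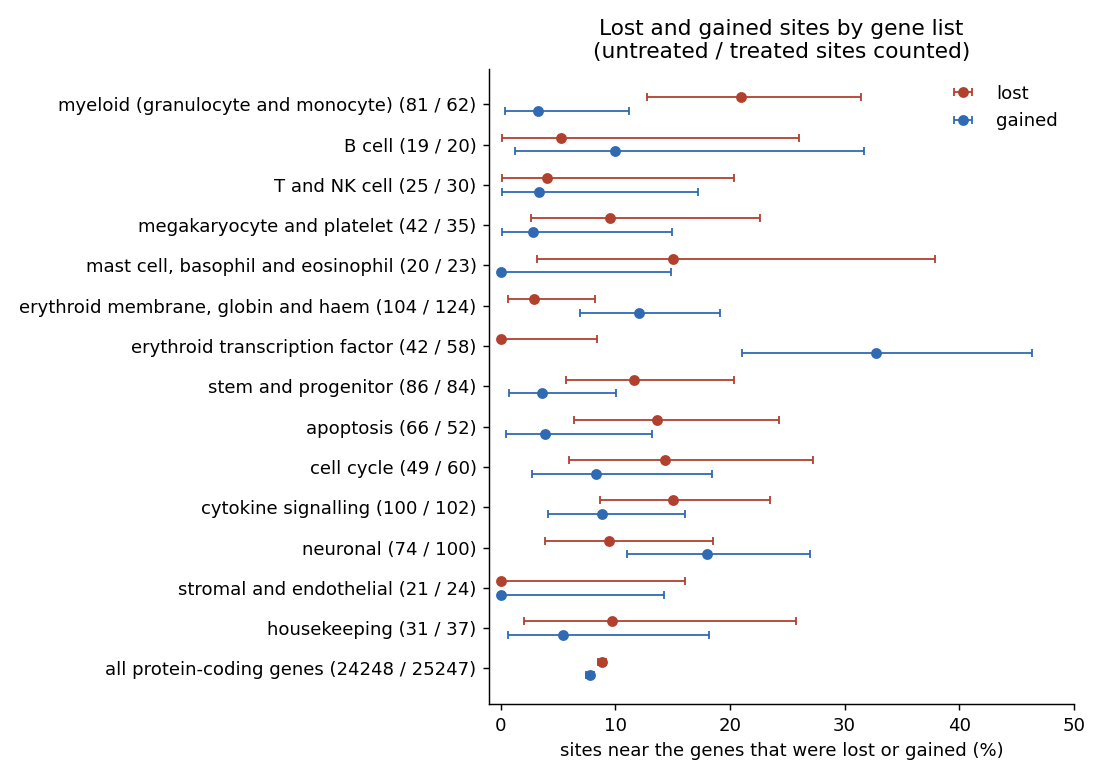
Share of unacetylated H3K4me1 sites near the genes of each list (y axis, with the number of untreated and treated sites) that were lost (red) or gained (blue) with doxycycline (x axis, %); lines are exact 95% intervals. The myeloid list stands at 21.0% lost and 3.23% gained, the 2 erythroid lists at 2.89% and 0% lost and 12.1% and 32.8% gained, and all genes at 8.83% and 7.79%.

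Stem and progenitor genes held 10 lost sites of 86 (11.6%, 5.72 to 20.4%) and 3 gained of 84 (3.57%). Their lost sites included 1 of 2003 bp in Ikzf1, the lymphoid and progenitor factor Ikaros, 2 each in Meis1, a homeobox factor of stem cells, and Angpt1, a TIE2 ligand, and 1 each at Bmi1, a Polycomb subunit, and Egfl7. Cytokine signalling genes held 15 lost of 100 (15.0%, 8.65 to 23.5%) and 9 gained of 102 (8.82%). Besides Gab2, they included Inpp5d, the inositol phosphatase SHIP1 (2 lost, 1 gained), Dusp2, a MAP kinase phosphatase, Sos1, a Ras exchange factor, and Jak1, a cytokine receptor kinase (1 lost, 1 gained). Both intervals of these lost site shares include the 8.83% over all genes. Counted by gene, 8 of 26 stem and progenitor genes held a lost site (30.8%, 14.3 to 51.8%) and 3 a gained one. Of 39 cytokine signalling genes, 10 held a lost site (25.6%, 13.0 to 42.1%) and 9 a gained one. The lost intervals by gene lie above the 9.81% of all genes, but the median genes of these lists were long, at 45.2 and 42.4 kb.

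Cell cycle genes held 7 lost of 49 sites (14.3%, 5.94 to 27.2%), an interval that includes the 8.83% over all genes. In Cdk6, a G1 kinase, 2 were lost, 1 of them 2753 bp wide with a treated peak 348 bp away, and its H3K4me1 peaks numbered 40 without and 20 with doxycycline. Others lay at the inhibitor Cdkn1a (1803 bp), at Rb1 and Rbl2, both of the retinoblastoma family, and at the licensing factor Cdt1. Apoptosis genes held 9 lost of 66 (13.6%, 6.43 to 24.3%), which also includes it. Traf1, an adaptor of TNF receptors, had 3, 1 of them over its start; Tnfsf14, Mcl1, an anti-apoptotic BCL2 relative, Apaf1, the apoptosome scaffold, and Fadd, a death receptor adaptor, had 1 each.

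In the lists for other cell types and in the control list, the interval of the lost share included the 8.83% over all genes throughout. Megakaryocyte and platelet genes lost 4 of 42 sites (9.52%), 2 at Selp, which encodes P-selectin, and 1 each at the integrin gene Itgb3 and at Gp5. Mast cell, basophil and eosinophil genes lost 3 of 20 (15.0%, 3.21 to 37.9%), at Fcer1a, Tpsb2 and Epx. B cell genes lost 1 of 19 (5.26%, 0.133 to 26.0%) and gained 2 of 20, and T and NK cell genes lost 1 of 25 (4.0%), at Cd247. Neuronal genes, with a median length of 513 kb, lost 7 of 74 (9.46%) in Cntnap2, Cacna1c, Lsamp and Ctnna2 and gained 18 of 100 (18.0%, 11.03 to 26.95%), against 7.79% gained over all genes. Stromal and endothelial genes lost none of 21, which allows up to 16.1%. Housekeeping genes, taken as a control list, lost 3 of 31 (9.68%, 2.04 to 25.8%), at Rab7 and B2m.

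The count of lost sites rests on the thresholds of the peak lists. When only the better 50% of each H3K4me1 list by score was compared, 31.1% of unacetylated sites counted as lost, and when a site with under 50% of its length under treated peaks counted as lost, 18.1% did. With a minimum width of 500 bp the share was 22.4%, and with 2000 bp it was 1.90%. With a gene flank of 50 kb in place of 10 kb, 12.7% of sites at myeloid genes were lost (8.497 to 18.11%) and 5.20% of those at the globin, haem and membrane genes (2.71 to 8.90%), against 8.86% at all genes, which both intervals include.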

How the data were processed

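ChIP-seq peak lists of 2 histone marks, without and with 48 h of doxycycline, were used and the other samples of the 24 in the series were not analysed here. Sample titles gave the groups. The submitters' processing notes name BWA, bcl2fastq 2.17.1.14 and mm10 as tools and build. How peaks were called, and how replicates 1 and 2 were joined for H3K27ac, is not given in the sources used here. Per peak, the deposited H3K4me1 lists give a score by the authors of unstated scale, used to rank peaks within a list, and a column below 0.01 that may be the authors' p-value or q-value and was not used. The deposited H3K27ac lists give a width and a further column that was not used. Starts lie on a grid of 50 bp. Read depth is unknown, and deeper libraries can yield longer lists and broader peaks.

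Peak starts and ends were taken as 1-based, inclusive positions, and 1 shared base counted as overlap. Gene positions and promoter windows came from RefSeq tables on GRCm38.p6 (the same assembly as mm10). The gene table gives neither strand nor exons, so positions are relative to either gene end, and promoter windows were present for all chromosomes used except 18. Of the gene list symbols, Tpsab1 had no match. For each gene list, a site counted when it touched a gene body extended by 10 kb, and once per list. Software was scipy 1.17.1, pandas 2.3.3 and numpy 2.4.6 under Python 3.11.15, with matplotlib 3.10.9 for figures. The code of the overlap rule was run on an altered copy of the untreated list, with known sites removed and peak edges trimmed. Recovery of those sites was set by that design. On the real lists, bedtools 2.31.1 gave the same 2788 sites. No replicates of a list were at hand, so no test across sites was made.

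The members, the 14 gene lists and the alternatives were chosen with earlier results of these data known. Named were the 10 widest sites, the 5 of highest score, the 5 farthest from treated H3K4me1, the 5 largest runs (ties by covered length), 2 sites on either side of the width limit, the 10 genes with most lost sites, up to 5 genes per list by covered length, and Spi1. Promoter genes, the other myeloid genes with a lost site, and genes named for an absent peak or for gained sites were chosen after their values were seen. Some genes that this rule takes are left out of the text.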

Additional observations from a re-analysis of the deposited data

How the results depend on the processing

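Of 67 values recomputed under alternatives, 29 stayed within the reported value's interval (for the count, within 1.5 times) and 38 did not; the cause was not tested except where the setting itself changes what is counted. The number of lost sites was 13678 at a minimum width of 500 bp, 173 at 2000 bp, 5589 when under 50% of a site covered counted as lost, and 9185 for the better 50% of both lists by score. The share of unacetylated sites lost was 22.4%, 1.90%, 18.1% and 31.1% in these, 7.98% when a treated peak within 500 bp counted as shared, 7.13% when any peak within 1000 bp counted as overlap, 8.13% for the better 50% of the untreated list against the whole treated list, and 10.7% with peaks within 1 kb merged. Sites near a gene end made up 5.62% at a minimum width of 500 bp, and 11.1% and 23.0% with windows of 2 and 5 kb. Intergenic sites made up 39.3% and 28.3% at minimum widths of 500 and 2000 bp, and 33.1% and 28.2% with those windows.

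Of narrower neighbours, 60.5% within 5 kb, 51.7% within 50 kb and 60.3% with the 500 bp rule for sharing were found without doxycycline alone. Less treated than untreated H3K4me1 lay within 5 kb of 54.0% of sites. With gaps of 10 and 50 kb, 11.4% and 34.4% of sites had another in their run. Lost sites lay at 8.29%, 21.1%, 31.9% and 8.63% of protein-coding genes with a flank of 5 kb, a flank of 50 kb, a minimum width of 500 bp, and the 500 bp rule for sharing. With the 50 kb flank, 44.0% of myeloid and 22.4% of globin, haem and membrane genes had one; with the 500 bp width, 54.0% and 22.4%, and 37.8% and 10.5% of their sites were lost. At all protein-coding genes, 21.7% of sites were lost with the 500 bp width and 7.69% with the 500 bp rule for sharing. Without Sox6, 15.8% of treated sites at erythroid transcription factor genes were gained. GAGGAAGT was in 11.1% of windows overlapping a lost site by at least 1 bp and in 18.5% of those inside sites of at least 500 bp.

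The settings without Lyn or Sox6, the 500 bp rule for sharing applied to genes, and the 500 bp width applied to windows were added after the values were seen. No paired analysis was possible because each mark has 1 list per condition and no result comes from a test. The unknown read depth limits every count, since a weak treated peak below the threshold of the list is counted as absent.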
